A study of Arabidopsis thaliana with 48 samples.

Results

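Arabidopsis thaliana seedlings carrying card1-2, a mutant allele of the receptor kinase gene CARD1, were compared with wild-type seedlings (WT) 1 h after both lines had received only the solvent dimethyl sulfoxide (DMSO). The comparison holds 6 of the 48 mRNA libraries of the series, chosen by their labels for genotype, agent and time: 3 of card1 and 3 of WT. The remaining libraries cover the same genotypes after 5 µM of the quinone DMBQ (dimethoxy-benzoquinone), at 4 time points from 0 to 6 h, and in DMSO at the 3 time points other than 1 h. All seedlings were of the Col-0 ecotype, and card1-2 was in the WT background, which expresses the calcium reporter aequorin, so the reporter was common to the groups compared. Whole seedlings were taken after 7 days in liquid Murashige-Skoog medium with sucrose in long days, and the DMSO volume matched that of the DMBQ treatment. The mutant group was a single allele in a single line. The labels give neither the hour of day of harvest nor whether replicates were separate cultures, so any p-value here reflects only how far these libraries differed, a spread that could be technical. In whole seedlings, fewer cells of a type and less RNA per cell cannot be told apart.

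CARD1, also known as HPCA1, is a leucine-rich repeat receptor-like kinase of the plasma membrane. It is required for the calcium signal that quinones evoke in Arabidopsis and for the perception of extracellular hydrogen peroxide. DMBQ belongs to a class of quinones related to lignin, which parasitic plants of the broomrape family use as a cue from host roots. Seedlings in DMSO alone had no quinone added, so the comparison shows how the transcriptomes of the lines differed in the solvent control.

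Levels are given as CPM, a gene's counts relative to the library's size after scaling by the trimmed mean of M-values (TMM). CPM is not per transcript length, so levels are compared between libraries and not between genes. The 3 WT libraries held 11986482, 10896337 and 12757673 counts assigned to genes, and the 3 card1 libraries held 7589425, 6296623 and 8552511. The mutant libraries were therefore shallower without overlap, and 21684 to 21914 genes were detected in them against 22267 to 22483 in WT. TMM factors also did not overlap, at 0.947 to 0.978 in card1 and 0.989 to 1.03 in WT. Within genotypes, replicates correlated at Spearman's rho of 0.989 to 0.994 across genes.

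CARD1 itself (AT5G49760, chr5:20216332-20221382, plus strand) was lower in every mutant library. WT replicates 1 to 3 had 66.7, 73.7 and 73.2 CPM, and card1 replicates 1 to 3 had 17.7, 23.7 and 18.3 CPM. The groups did not overlap, although no mutant library lacked the transcript: the card1 libraries still held 128, 146 and 148 reads on the gene. The means were 71.2 ± 3.89 and 19.9 ± 3.33 CPM (SD, n = 3 each). The log2 fold change was −1.85 ± 0.10 (SE), a 3.601-fold difference, with an adjusted p of 2.40e-18 in edgeR's quasi-likelihood test with Benjamini-Hochberg adjustment. The difference at 1 h in DMSO was the largest in size of the 8 genotype comparisons in the series, in which the CARD1 log2 fold change ran from −1.41 to −1.85. In CARD1's subfamily of receptor kinases, LRR VIII-1, 7 genes were tested, of which 0 were called higher and 1, CARD1, was called lower. Of the 7, 6 had a negative log2 fold change and 1 a positive one, with a median of −0.30. Its tandem neighbour AT5G49770 had 6.25 CPM in WT against 3.95 CPM in card1 (log2 fold change −0.66 ± 0.26 SE, adjusted p 0.1496, edgeR). AT5G49770 and its subfamily member AT5G01950 had a negative sign in all 8 genotype comparisons and were called in 0 of them.

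**Figure D1:**
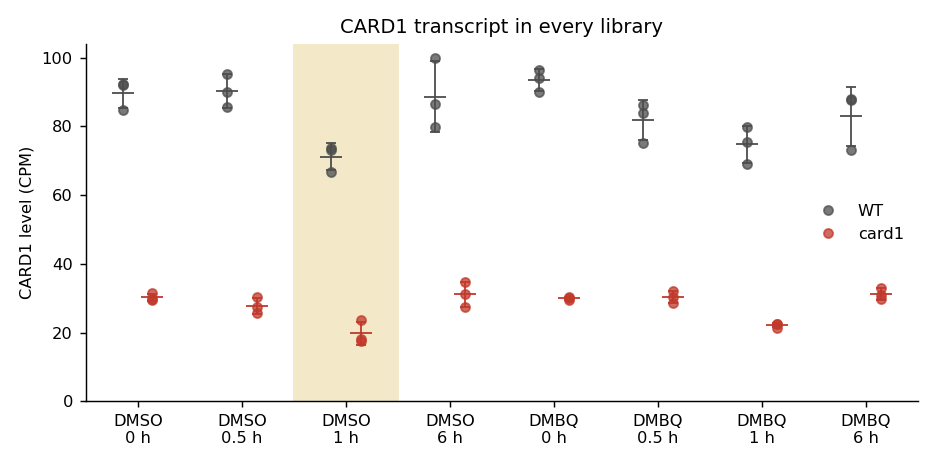
CARD1 level in CPM (linear axis from 0) in each of the 48 libraries, grouped by genotype, agent and time, with bars at the mean ± SD of 3 libraries and the DMSO 1 h groups shaded. In the shaded groups the WT libraries sit at 66.7 to 73.7 CPM and the card1 libraries at 17.7 to 23.7 CPM.

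Beyond CARD1, the mutant differed from WT in many genes by small amounts. Of 19839 genes tested, 726 (3.66%) passed an adjusted p of 0.05 in edgeR's quasi-likelihood test, with 389 higher in card1 (1.96%) and 337 lower (1.7%). Most differences were modest. The median of the higher genes was 1.32-fold (log2 0.40) and that of the lower genes 1.47-fold (log2 −0.55), and 479 of the 726 differed by less than 1.5-fold. Only 32 genes were at least 2-fold higher and 55 at least 2-fold lower. In 708 of the called genes the 3 libraries of a genotype did not overlap those of the other, as was true of 25.4% of all genes tested. The median over all genes tested was −0.00 on the log2 scale. The number of calls rested strongly on some single libraries: 188 genes were called without WT replicate 2, 267 without WT replicate 3, 281 without card1 replicate 1 and 325 without card1 replicate 3. It was 558 without card1 replicate 2 and 708 without WT replicate 1. Fitted on the 24 DMSO libraries alone, 342 genes were called.

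**Figure D2:**
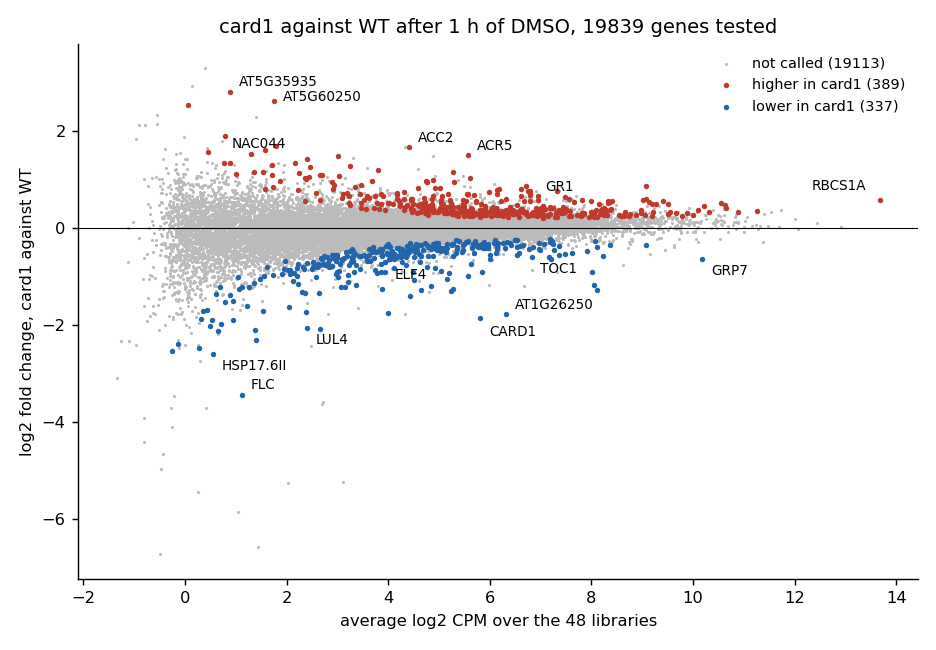
Log2 fold change of card1 against WT at 1 h in DMSO (vertical axis) by average log2 CPM over the 48 libraries (horizontal axis), with 1 point per gene: 389 called higher in red, 337 called lower in blue and 19113 not called in grey. CARD1, labelled, lies at −1.85, and the widest grey scatter is at low levels, where genes without counts in a whole group have fitted values that are no bounds.

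The 15 genes with the largest rises were mostly counted at a few CPM or less. They and the 15 falls were picked only among called genes whose groups did not overlap. Their lack of overlap is therefore a condition of the choice and not a result. AT5G60250, a RING finger protein, had 1.44, 0.721 and 0.993 CPM in WT against 4.56, 6.01 and 9.01 CPM in card1. All 3 mutant libraries lay above all WT libraries, and the log2 fold change was 2.63 ± 0.31 (SE, adjusted p 2.10e-07, edgeR). ARI3, an ARIADNE-type RING protein of the ubiquitin ligase class, had 0.338, 0.180 and 0.229 CPM in WT against 0.552, 1.3 and 2.59 CPM in card1 (log2 2.54 ± 0.52). Its mutant libraries lay above WT but spread widely, and without card1 replicate 3 the call was lost (edgeR adjusted p 0.135). ACC2, a plastid acetyl-CoA carboxylase of fatty acid synthesis, had 13.8, 8.66 and 11.5 CPM in WT against 28.6, 34.6 and 44.5 CPM in card1. Its groups were well apart, with a log2 fold change of 1.67 ± 0.29 (adjusted p 6.21e-04, edgeR).

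The best measured of these rises was ACR5, a member of the ACT domain repeat family, whose domain is thought to bind amino acids. It had 25.2, 22.7 and 23.4 CPM in WT against 60.9, 74.4 and 67.5 CPM in card1. The lowest mutant library was far above the highest WT library, and the log2 fold change was 1.51 ± 0.13 (SE, adjusted p 2.76e-11, edgeR). NAC044, a NAC transcription factor, had 2.79, 3.79 and 3.82 CPM in WT and near 9.4 CPM in all 3 card1 libraries (log2 1.43 ± 0.23, adjusted p 9.65e-05). Both pseudogene entries among the 15 were also higher: AT5G35935 by 2.82 and AT3G21040 by 1.61 on the log2 scale. The remaining 8 were AT3G09680, a ribosomal protein of the S12/S23 family, the glucosinolate S-oxygenase FMO GS-OX1, the AN1-type zinc finger protein PMZ, the uncharacterized AT1G65490, the pectin lyase-like AT1G65570, the thioesterase AT1G35290, the HSP20-like AT5G47600 and the carboxyesterase CXE17. Their log2 fold changes ran from 1.31 for CXE17 to 1.90 for AT3G09680. For each of these 8 the call depended on at least 1 library, with adjusted p values between 0.0537 and 0.227 in those fits, whereas AT5G35935, AT5G60250, ACC2, AT3G21040, ACR5 and NAC044 kept it without each of the 6.

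Among the 15 largest falls, picked under the same condition of no overlap, FLC stood first. FLC (AT5G10140, chr5:3173382-3179448, minus strand) encodes the MADS-box repressor of flowering. WT replicates had 42, 38 and 53 reads on it, or 3.55, 3.43 and 4.05 CPM, and card1 replicates had 6, 1 and 0 reads, or 0.828, 0.162 and 0 CPM. The transcript was close to absent in the mutant libraries and present at a low level in all WT libraries. The log2 fold change was −3.44 ± 0.54 (SE, adjusted p 8.46e-05, edgeR). The sources used here do not give the strand setting of the counting, so reads of FLC and of its antisense transcripts cannot be told apart.

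LUL4, a RING-type ubiquitin ligase related to the amino acid export regulator LOG2, had 7.85, 7.57 and 9.78 CPM in WT against 1.66, 2.44 and 1.98 CPM in card1. It was lower with no overlap (log2 −2.06 ± 0.23 SE, adjusted p 6.78e-08, edgeR). AT1G26250, a proline-rich extensin-like cell wall protein, had 91.4, 90.3 and 109 CPM in WT against 26.2, 32.8 and 26.4 CPM in card1 (log2 −1.77 ± 0.25, adjusted p 4.02e-05). AT1G30280, a DnaJ-domain chaperone, had 4.81, 10.6 and 11.7 CPM in WT against 1.79, 2.27 and 2.35 CPM in card1. Its log2 fold change was −2.08 ± 0.28 (adjusted p 4.71e-06, edgeR), and WT replicate 1 stood well below the other WT libraries. The cellulose synthase-like gene ATCSLB05 was lower by 2.32 ± 0.46 on the log2 scale (adjusted p 0.00203). TT10, a laccase-like oxidase that acts on flavonoids in the seed coat, had 2.195, 1.98 and 2.67 CPM in WT against 0.414, 0.975 and 0.494 CPM in card1 (log2 −1.89 ± 0.39, adjusted p 0.00300).

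DELTA-VPE, a vacuolar processing enzyme known from the inner seed coat layer, fell as well (log2 −1.90 ± 0.55), but its adjusted p of 0.0431 (edgeR) rose to between 0.0806 and 0.1503 without any of 5 libraries. The small heat shock gene HSP17.6II fell by 2.59 on the log2 scale and lost its call without WT replicate 3 (adjusted p 0.121) or card1 replicate 3 (adjusted p 0.110). The other falls were the acyltransferase AT1G78990, the GDSL lipase GLIP3, the glycine-rich protein AT2G05530, the xanthine/uracil permease AT1G49960, the glutamate receptor-like channel GLR2.3 and the oxysterol-binding protein ORP4A. Their log2 fold changes ran from −1.88 for ORP4A to −2.48 for AT1G78990. The call of each of these 6 also depended on at least 1 library, with adjusted p values between 0.0508 and 0.128 in those fits. FLC, ATCSLB05, AT1G30280, LUL4, TT10 and AT1G26250 kept theirs in all 6 such fits.

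**Figure D3:**
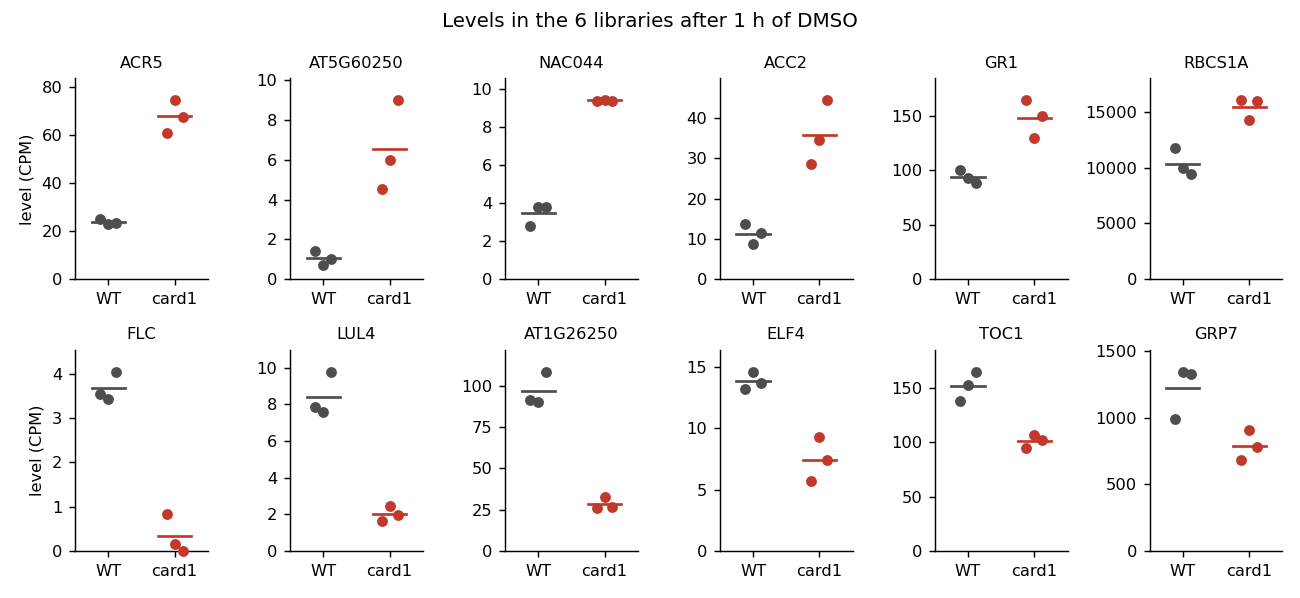
CPM of 12 genes in the 3 WT and 3 card1 libraries at 1 h in DMSO, each panel with its own linear axis from 0, points for libraries and a line at the mean. Genotypes do not overlap in any panel, from FLC (0 to 0.828 CPM in card1) to RBCS1A (14228 to 16065 CPM in card1 against 9405 to 11718 CPM in WT). For ACR5, AT5G60250, NAC044, ACC2, FLC, LUL4 and AT1G26250 the lack of overlap was a condition of being picked.

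To see whether these differences recurred, the same genotype comparison was read at other times and with DMBQ, in libraries whose levels do not enter the fold change at 1 h in DMSO. The fit took its estimate of spread from all 48 libraries, so the calls are not independent of one another. These were DMSO at 0 h (12.7% of tested genes called), 0.5 h (6.11%) and 6 h (5.19%) and DMBQ at 1 h (7.38%). Of the 726 genes, 324 were called in the same direction at 0.5 h, which is 44.6% of the 726 and 26.7% of the 1213 calls at 0.5 h. At 6 h the number was 189 (26.0% of the 726, 18.4% of 1029 calls), and at 1 h of DMBQ it was 441 (60.7% of the 726, 30.1% of 1465 calls). At 0 h it was 302 (41.6% of the 726, 12.01% of 2514 calls), but card1 replicates 1 and 2 at 0 h showed a trend of level with transcript length (Spearman's rho −0.515 and −0.497 across genes, against 0.00490 to 0.0918 in the 6 libraries compared here). Without those 2 libraries, 56 genes were called in the same direction at 0 h. Fitted only on the libraries of each comparison, 186 were called in the same direction at 0.5 h and 11 at 0 h. Calls in the opposite direction were 2 for 0 h, 5 for 6 h and 0 for both remaining comparisons. At 0.5 h in DMSO the trend with transcript length also differed between genotypes. Spearman's rho was −0.157, −0.195 and −0.212 in the WT libraries against 0.0612, 0.0585 and 0.137 in card1. The calls at 0.5 h are therefore limited in the same way.

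The sign of the differences recurred more widely than the calls. The number of the 726 genes with the same sign was 715 at 1 h of DMBQ, 706 in DMSO at 0.5 h, 605 in DMSO at 6 h and 656 in DMSO at 0 h. The share with the same sign over all genes tested was not counted, so these numbers have no background beside them. The genes higher at 1 h in DMSO had medians of 0.32 at 0.5 h, 0.19 at 6 h and 0.38 at 1 h of DMBQ on the log2 scale, and the lower genes had −0.40, −0.26 and −0.39. In all 4 other comparisons 57 genes were called the same way, 30 higher and 27 lower, and 141 were called in none. Both counts rest in part on calls in DMSO at 0 and 0.5 h, with the limits given above. Fewer than 57 genes were called the same way at 0 h without the card1 libraries that showed the length trend there. The same was true when only the libraries of each comparison were fitted. The 57 could therefore not all stand in those fits. Among the 57 were CARD1, ACR5 and, chosen after their values were seen, PTB1 and SKIP6. SKIP6, an F-box and kelch protein that interacts with SKP1-type subunits of ubiquitin ligases, had 52.3, 40.9 and 44.4 CPM in WT against 22.4, 18.4 and 19.6 CPM in card1. Its groups were far apart (log2 −1.19 ± 0.10 SE, adjusted p 3.15e-11, edgeR), and it kept its call without each of the 6 libraries.

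Across all 8 genotype comparisons, which add DMBQ at 0 h (3.87% of genes called), 0.5 h (26.1%) and 6 h (7.05%), FLC, LUL4, ACR5, NAC044, AT5G60250, AT5G35935, AT3G21040 and AT1G26250 were called in the same direction every time. At 0.5 h of DMBQ the length trend was −0.410, −0.391 and −0.432 in the WT libraries against 0.0372, 0.130 and 0.180 in card1. Calls there carry that limit, as do those in DMSO at 0 and 0.5 h. FLC ranged from −2.76 to −5.55 on the log2 scale, LUL4 from −1.67 to −2.34 and ACR5 from 1.08 to 2.04. ACC2, ATCSLB05 and ORP4A were called in 7 of 8. At the other end, FMO GS-OX1, CXE17 and DELTA-VPE were called at 1 h in DMSO only. The sign of FMO GS-OX1 and CXE17 was the same in all 8, and that of DELTA-VPE in 6, with 0.15 at 0 h and 0.37 at 0.5 h of DMBQ. FMO GS-OX1 differed by 1.69 at 1 h in DMSO and by 0.16 to 1.00 in the other 7.

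**Figure D4:**
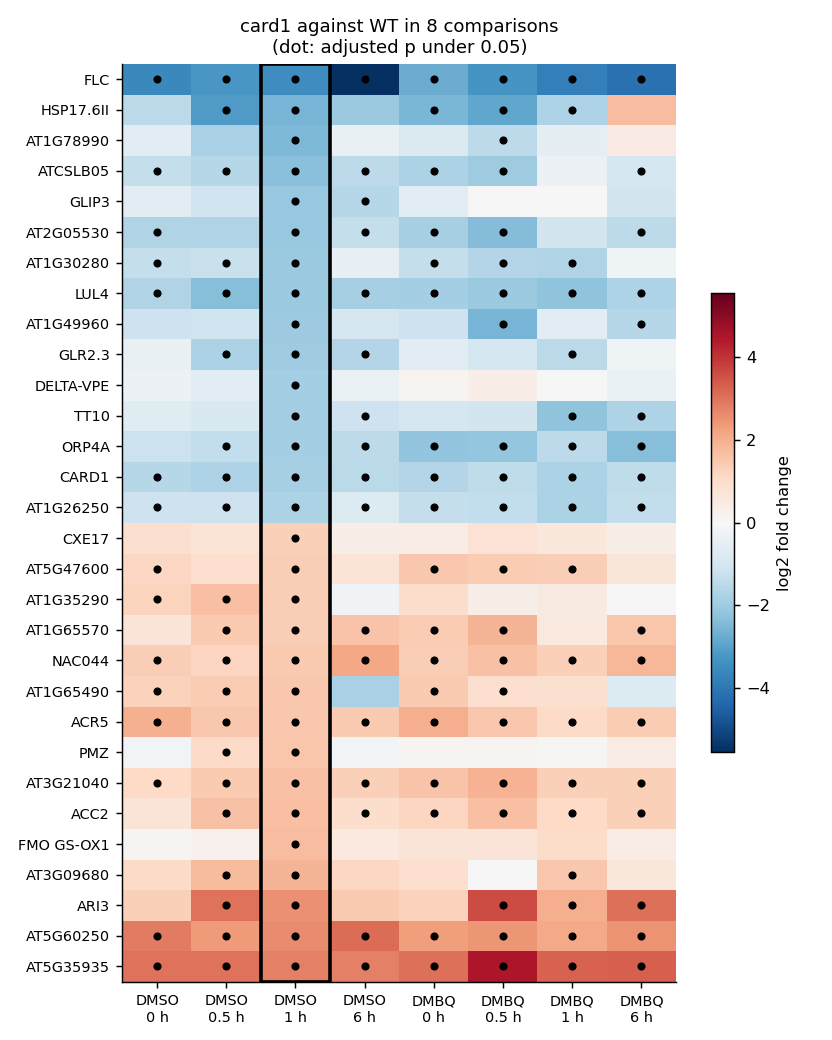
Heat map of log2 fold change of card1 against WT (colour, red higher and blue lower, symmetric scale) for the 15 largest rises and 15 largest falls at 1 h in DMSO, in the 8 comparisons of agent and time, with a dot where the adjusted p is below 0.05 and a box around DMSO at 1 h. FLC, LUL4, ACR5 and NAC044 carry a dot in all 8 columns, whereas FMO GS-OX1, CXE17 and DELTA-VPE carry a dot in the boxed column alone.

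No gene passed the test of whether its genotype difference at 1 h in DMSO differed from that elsewhere. Against the mean of 0, 0.5 and 6 h in DMSO, 0 genes were called by edgeR (0%), with 872 at an unadjusted p below 0.05. The smallest p was that of AT2G01210, a leucine-rich repeat kinase (log2 −0.78 ± 0.20 SE, p 2.76e-04, adjusted p 1.00, edgeR). Against the genotype difference at 1 h of DMBQ, 0 genes were called (0%), with 460 at an unadjusted p below 0.05. There the smallest p was that of ABCA7, an ABC transporter (log2 1.02 ± 0.26 SE, p 3.13e-04, adjusted p 1.00, edgeR). DESeq2 called 1 gene in each test, the seed storage albumin AT4G27140. It had 17, 6 and 5 reads in WT at 1 h in DMSO and 0 in all 3 card1 libraries, and between 0 and 172 reads in card1 at 6 h in DMSO.

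The Arabidopsis clock is a loop in which the morning factors CCA1 and LHY repress evening genes through the evening element, and the evening proteins TOC1 and the ELF4-containing evening complex repress in turn. Of 28 clock genes tested, 4 were lower and 1 was higher in card1 (17.9% called, against 3.66% of all genes tested), with a median log2 fold change of 0.13 against −0.00 over all genes tested. By share of called members the list of the FLC clade and other flowering genes (22.2%), redox enzymes (20%) and aliphatic glucosinolates (18.18%) stood higher. The 4 lower genes were ELF4, a subunit of the evening complex, TOC1 and PRR3, both pseudo-response regulators of the evening, and GRP7, a clock-controlled RNA-binding protein.

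TOC1 and GRP7 have evening elements in the 250 bases upstream of the annotated gene start, and these windows are shown as examples from genes that were lower in card1. The sequences are read from RefSeq's TAIR10.1 assembly, 5′ to 3′ on the gene's strand, with the evening element in capitals in either orientation, AAATATCT or AGATATTT. They are chr5:24674713-24674962 (plus strand) for TOC1 and chr2:9266558-9266807 (minus strand) for GRP7.
TOC1: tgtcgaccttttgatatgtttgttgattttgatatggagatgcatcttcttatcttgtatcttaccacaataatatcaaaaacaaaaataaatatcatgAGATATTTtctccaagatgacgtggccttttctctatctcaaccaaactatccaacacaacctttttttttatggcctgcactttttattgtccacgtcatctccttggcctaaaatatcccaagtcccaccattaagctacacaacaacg
GRP7: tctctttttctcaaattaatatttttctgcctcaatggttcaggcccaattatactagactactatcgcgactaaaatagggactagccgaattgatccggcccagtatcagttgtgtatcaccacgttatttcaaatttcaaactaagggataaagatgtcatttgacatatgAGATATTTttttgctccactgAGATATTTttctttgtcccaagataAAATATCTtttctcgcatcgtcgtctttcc

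The TOC1 window holds 1 such element and the GRP7 window 3. An element on either strand was found in 8 of the 28 clock genes' windows (28.6%) and in 952 of 19239 windows of genes tested (4.95%). Of the 8 genes with an element, 7 had a negative log2 fold change and 3 were called lower. Of the 20 without, 6 had a negative log2 fold change, 1 was called lower (PRR3) and 1 higher (PRR9). A match describes the letters only.

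ELF4 had 13.2, 14.6 and 13.7 CPM in WT against 5.66, 9.26 and 7.41 CPM in card1, with a log2 fold change of −0.90 ± 0.15 (SE, adjusted p 2.83e-04, edgeR). PRR3 had 20.7, 27.4 and 25.1 CPM in WT against 11.3, 16.2 and 11.9 CPM in card1 (log2 −0.90 ± 0.17, adjusted p 8.71e-04). In both genes every mutant library lay below every WT library. TOC1 had 138, 153 and 165 CPM in WT against 94.3, 106 and 102 CPM in card1 (log2 −0.59 ± 0.12, adjusted p 0.00435, edgeR), again without overlap. GRP7 had 990.1, 1344 and 1327 CPM in WT against 678, 909 and 777 CPM in card1 (log2 −0.63 ± 0.15, adjusted p 0.0134). The GRP7 call was lost without WT replicate 2 (adjusted p 0.0866), WT replicate 3 (0.0773), card1 replicate 1 (0.102) or card1 replicate 3 (0.0564), whereas ELF4, PRR3 and TOC1 kept theirs in all 6 such fits.

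PRR9, a morning pseudo-response regulator, was the 1 clock gene called higher. It had 5.15, 1.89 and 1.604 CPM in WT against 9.53, 4.71 and 4.32 CPM in card1 (log2 1.11 ± 0.31 SE, adjusted p 0.0349, edgeR). Its groups overlapped, since WT replicate 1 lay above 2 of the mutant libraries. LHY had 20.9, 5.05 and 6.19 CPM in WT against 45.6, 23.1 and 33.2 CPM in card1, with no overlap, and was not called (log2 1.67 ± 0.54, adjusted p 0.0761). The PRR9 call was lost without WT replicate 2 (adjusted p 0.186), WT replicate 3 (0.214) or card1 replicate 1 (0.370). In PRR9 and LHY alike, replicate 1 was the highest library of each genotype. CCA1 (log2 0.73 ± 0.41, adjusted p 0.345) and the evening photoreceptor FKF1 (log2 −0.93 ± 0.30, adjusted p 0.0742) did not pass either.

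No clock gene passed a test of a difference between the genotype effect at 1 h and at the other times in DMSO (adjusted p 1.00 for TOC1, PRR3, GRP7 and ELF4, edgeR), so the counts of calls that follow describe each comparison alone. TOC1 was called lower in 6 of the 8 comparisons, all but those at 6 h, where its log2 fold change was −0.15 in DMSO and −0.16 in DMBQ. PRR3 was likewise lower in 6 of 8, with 0.38 at 6 h of DMSO and 0.45 at 6 h of DMBQ, the latter called higher (adjusted p 0.0436, edgeR). GRP7 was lower in 5 of 8 and stood at 0.10 and 0.08 at 6 h. ELF4 was lower in 5 of 8, from −0.24 to −1.46 over all 8. Time after treatment and hour of day cannot be told apart in these labels.

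FLC belongs to a clade of MADS-box flowering repressors with the MAF genes. Of 9 tested genes of a list that holds this clade and other flowering genes, such as FRI, SVP and CO, 0 were higher and 2 were lower (22.2%). The median was −0.24. Besides FLC, MAF4 was lower, with 2.79, 2.25 and 2.06 CPM in WT against 1.66, 0.975 and 0.864 CPM in card1. Its groups did not overlap (log2 −1.01 ± 0.30 SE, adjusted p 0.0431, edgeR). The call was lost without WT replicate 1 (adjusted p 0.123), WT replicate 2 (0.0919), WT replicate 3 (0.0674), card1 replicate 2 (0.126) or card1 replicate 3 (0.230), and MAF4 was called in 2 of the 8 comparisons. Of the list's other genes, FRI (log2 0.15 ± 0.15, adjusted p 0.637, edgeR) and SVP (log2 0.10 ± 0.10, adjusted p 0.661) did not pass.

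Of 21 nuclear photosynthesis genes tested, 1 was higher and 0 were lower (4.76%, against 3.66% of all genes tested), and 19 had a positive log2 fold change, with a median of 0.12. RBCS1A, a small subunit of Rubisco, had 11718, 9943 and 9405 CPM in WT against 16065, 14228 and 15996 CPM in card1. The groups were apart (log2 0.58 ± 0.10 SE, adjusted p 2.86e-04, edgeR), and RBCS1A was called higher in all 8 comparisons. Near-identical RBCS copies make its count uncertain, since reads with several alignments were set aside. The summed level of the 21 genes was 48441 to 59096 CPM in WT against 59224 to 62616 CPM in card1.

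Markers of the organs in a whole seedling were present in both lines. The summed level of 20 root hair genes was 208 to 296 CPM in WT against 261 to 286 CPM in card1, with 0 called and a median of −0.06. That of 16 root cell type genes was 1935 to 2171 CPM in WT against 2104 to 2546 CPM in card1. Of these 16, 0 were higher and 2 lower (12.5%, against 3.66% of all genes tested), with a median of −0.11. The summed level of 6 shoot meristem and stomatal genes was 59.6 to 60.1 CPM in WT against 55.9 to 62.7 CPM in card1, with 0 called and a median of −0.17. No tested marker of these lists was at 0 in both groups, and the part of organ proportions in the other results was not tested.

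The 2 lower root genes act together in epidermal cell fate, where the MYB factor WER (MYB66) activates the homeodomain gene GL2 in non-hair cells. MYB66 had 4.90, 6.22 and 4.35 CPM in WT against 2.90, 1.95 and 2.84 CPM in card1 (log2 −0.98 ± 0.26 SE, adjusted p 0.0208, edgeR). GL2 had 17.2, 17.9 and 17.57 CPM in WT against 8.70, 14.6 and 12.7 CPM in card1 (log2 −0.55 ± 0.15, adjusted p 0.0293). Neither overlapped between genotypes, and each lost its call without 4 of the 6 libraries. For MYB66 these were WT replicate 2 (adjusted p 0.126), card1 replicate 1 (0.0567), card1 replicate 2 (0.0948) and card1 replicate 3 (0.0617). For GL2 they were WT replicate 2 (0.0953), WT replicate 3 (0.0865), card1 replicate 1 (0.259) and card1 replicate 3 (0.0674).

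Redox enzymes included 4 called genes of 20 tested, 3 higher and 1 lower (20%, against 3.66% of all genes tested), with a median of 0.15. GR1, the glutathione reductase of the cytosol and peroxisome, had 100.6, 93.5 and 88.4 CPM in WT against 165, 129.8 and 149.9 CPM in card1. It was higher in every mutant library (log2 0.66 ± 0.09 SE, adjusted p 1.62e-05, edgeR) and in 6 of 8 comparisons, though not in those at 6 h. RBOHB, an NADPH oxidase that makes extracellular superoxide, had 8.70, 10.1 and 10.6 CPM in WT against 6.07, 5.36 and 3.95 CPM in card1. It was lower without overlap (log2 −0.94 ± 0.19, adjusted p 0.00197) and was called in 2 of 8 comparisons. CAT2, the leaf peroxisomal catalase, had 767, 569 and 629 CPM in WT against 929.8, 870.3 and 968 CPM in card1 (log2 0.49 ± 0.12, adjusted p 0.0127), and FSD1, a plastid iron superoxide dismutase, differed by 0.33 ± 0.09 (adjusted p 0.0206). CAT2 lost its call without WT replicate 2 (adjusted p 0.115), WT replicate 3 (0.0697) or card1 replicate 3 (0.0628), and FSD1 without WT replicate 2 (0.137), WT replicate 3 (0.0718), card1 replicate 1 (0.0612) or card1 replicate 3 (0.103).

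Glutathione S-transferases, which conjugate glutathione to electrophiles such as quinones, had 1 higher and 1 lower member of 25 tested. That is 8%, against 3.66% of all genes tested, and the median was 0.12. GSTU20 had 75.1, 72.1 and 68.0 CPM in WT against 125, 123 and 119.7 CPM in card1. The replicates were tight within each genotype and far apart between them (log2 0.77 ± 0.15 SE, adjusted p 0.00197, edgeR). GSTF14 had 11.3, 11.8 and 12.5 CPM in WT against 5.11, 7.80 and 3.33 CPM in card1 (log2 −1.17 ± 0.32, adjusted p 0.0307). It was called lower in all 8 comparisons, but at 1 h in DMSO the call was lost without WT replicate 2 (adjusted p 0.0856), WT replicate 3 (0.0993), card1 replicate 1 (0.116) or card1 replicate 3 (0.196). Of 19 genes of quinone and xenobiotic handling, such as quinone reductases, 0 were called, and the median was 0.07. Of 8 genes of the mitochondrial retrograde response 1 was higher (12.5%), with a median of 0.42. That gene was the alternative NAD(P)H dehydrogenase NDA1 (log2 0.46 ± 0.11, adjusted p 0.0153), which lost its call without WT replicate 2 (0.0520), WT replicate 3 (0.125) or card1 replicate 1 (0.120).

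Of 14 flavonoid and anthocyanin genes, 1 was higher (7.14%, against 3.66% of all genes tested) and 12 had a positive log2 fold change, with a median of 0.46. It was TT4, chalcone synthase, which commits precursors to flavonoids, with 50.9, 41.0 and 64.8 CPM in WT against 79.8, 94.4 and 102 CPM in card1. The groups did not overlap (log2 0.82 ± 0.22 SE, adjusted p 0.0274, edgeR), but the call was lost without WT replicate 1 (0.0654), WT replicate 2 (0.161), card1 replicate 2 (0.0630) or card1 replicate 3 (0.118). Of 15 phenylpropanoid and lignin genes 2 were higher (13.3%), with a median of 0.24. These were 4CL1 (log2 0.43 ± 0.13, adjusted p 0.0476), which activates hydroxycinnamates, and CCR1 (log2 0.30 ± 0.09, adjusted p 0.04999, just under the threshold), which opens the monolignol branch. The libraries of 4CL1 overlapped, at 36.9 to 46.7 CPM in WT against 45.8 to 60.3 CPM in card1. Without WT replicate 2, WT replicate 3, card1 replicate 1 or card1 replicate 3 their adjusted p values lay between 0.0956 and 0.354, and CCR1 also lost its call without WT replicate 1 (0.0556).

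Aliphatic glucosinolates are sulfur-rich defence compounds made from methionine. Of 11 genes tested 2 were higher (18.18%, against 3.66% of all genes tested), 10 had a positive log2 fold change, and the median was 0.57. MAM1, which elongates the methionine side chain, had 88.1, 76.3 and 79.7 CPM in WT against 104, 127 and 137 CPM in card1 (log2 0.59 ± 0.14 SE, adjusted p 0.0154, edgeR). CYP83A1, a core pathway cytochrome P450, had 53.2, 45.0 and 42.0 CPM in WT against 74.8, 70.5 and 63.0 CPM in card1 (log2 0.57 ± 0.16, adjusted p 0.0388). Neither gene's groups overlapped. MAM1 lost its call without WT replicate 2 (0.0858), WT replicate 3 (0.0695) or card1 replicate 3 (0.0977), and CYP83A1 without any of 5 libraries (0.0598 to 0.168). The regulator MYB28 stood at −0.12 ± 0.16 (adjusted p 0.752). Of 14 genes of tryptophan, camalexin and indole glucosinolate synthesis 0 were called, with a median of 0.05.

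Hormone lists held few calls. Of 15 auxin genes 2 were higher (13.3%, against 3.66% of all genes tested), and the median was 0.24. These were the early auxin-induced repressors IAA1 (log2 0.72 ± 0.20, adjusted p 0.0349, edgeR) and IAA19 (log2 0.85 ± 0.24, adjusted p 0.0388). IAA1 lost its call without any of 5 libraries (0.0512 to 0.207) and IAA19 without any of 4 (0.0892 to 0.298). Of 14 salicylic acid, 24 jasmonic acid and 16 abscisic acid and cold genes, 0 were called, with medians of 0.01, 0.03 and −0.01. EDS16, which makes the precursor of salicylic acid, came closest (log2 0.52 ± 0.16, adjusted p 0.0531) and passed without card1 replicate 1 (0.0243).

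Lists of the early stress response showed no call at all in edgeR other than HSP17.6II, described above. HSP17.6II was the 1 lower of 17 heat shock genes (5.88%, against 3.66% of all genes tested), whose median was −0.05. Of 19 calcium signalling genes, 20 WRKY factors and 19 genes of pattern-triggered immunity, 0 were called, with medians of 0.05, −0.09 and 0.10. The calcium pump gene ACA8 had the smallest adjusted p of the calcium list (log2 −0.32 ± 0.11, adjusted p 0.0820) and passed without WT replicate 1 (0.0437). Of 18 early ERF, CBF and ZAT factors, 0 were called while 16 had a negative log2 fold change, with a median of −0.41. The smallest adjusted p among them was 0.0742, of the zinc finger factor ZAT6, which had 6.59, 3.88 and 6.11 CPM in WT against 3.73, 2.60 and 3.46 CPM in card1. DDF1 in that list had no count in any card1 library. Setting DDF1 to a floor of 3 counts over the group left the median at −0.41, as a median hardly depends on 1 extreme member.

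Nutrient lists had few calls. Of 16 iron genes 1 was higher (6.25%, against 3.66% of all genes tested) and 12 had a negative log2 fold change, with a median of −0.64. The uptake genes IRT1 (17.2 CPM in WT against 4.95 CPM in card1, log2 −1.77 ± 1.35 SE, adjusted p 0.516, edgeR) and FRO2 (log2 −1.64 ± 1.18, adjusted p 0.485) had errors nearly as large as their differences. The 1 higher gene was the ferritin FER4 (log2 0.52 ± 0.15, adjusted p 0.0343), whose libraries overlapped at 17.3 to 23.1 CPM in WT against 22.9 to 35.3 CPM in card1. It lost its call without WT replicate 2 (0.198), WT replicate 3 (0.0834), card1 replicate 2 (0.186) or card1 replicate 3 (0.128). Of 12 genes of sugar starvation 0 were called and 11 were positive, with a median of 0.28. The isocitrate lyase gene ICL, of the glyoxylate cycle, had 19.3, 5.41 and 10.1 CPM in WT against 39.5, 24.5 and 34.2 CPM in card1 without passing (log2 1.501 ± 0.52, adjusted p 0.103). Of 16 nitrate and phosphate genes 1 was higher (6.25%), and the median was 0.17. That gene was the nitrate-responsive repressor LBD39 (log2 0.36 ± 0.10, adjusted p 0.0442, edgeR, lost without any of 5 libraries at 0.0779 to 0.202). Of 8 sulfate, 10 xyloglucan and expansin and 12 xylem genes, 0 were called, with medians of −0.36, 0.20 and 0.13.

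Over the 31 lists together, 483 genes were tested, of which 17 were higher and 12 lower (6.00%, against 3.66% of all genes tested), with a median of 0.07. Of the lists, 16 held a called member and 15 held none. In those 15, of 231 genes tested 25 had an unadjusted p below 0.05 in edgeR, against 3666 of all 19839 genes tested. Those lists were grouped by having no call, which lowers the count in advance. DESeq2 called 0 of the 231.

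**Figure D5:**
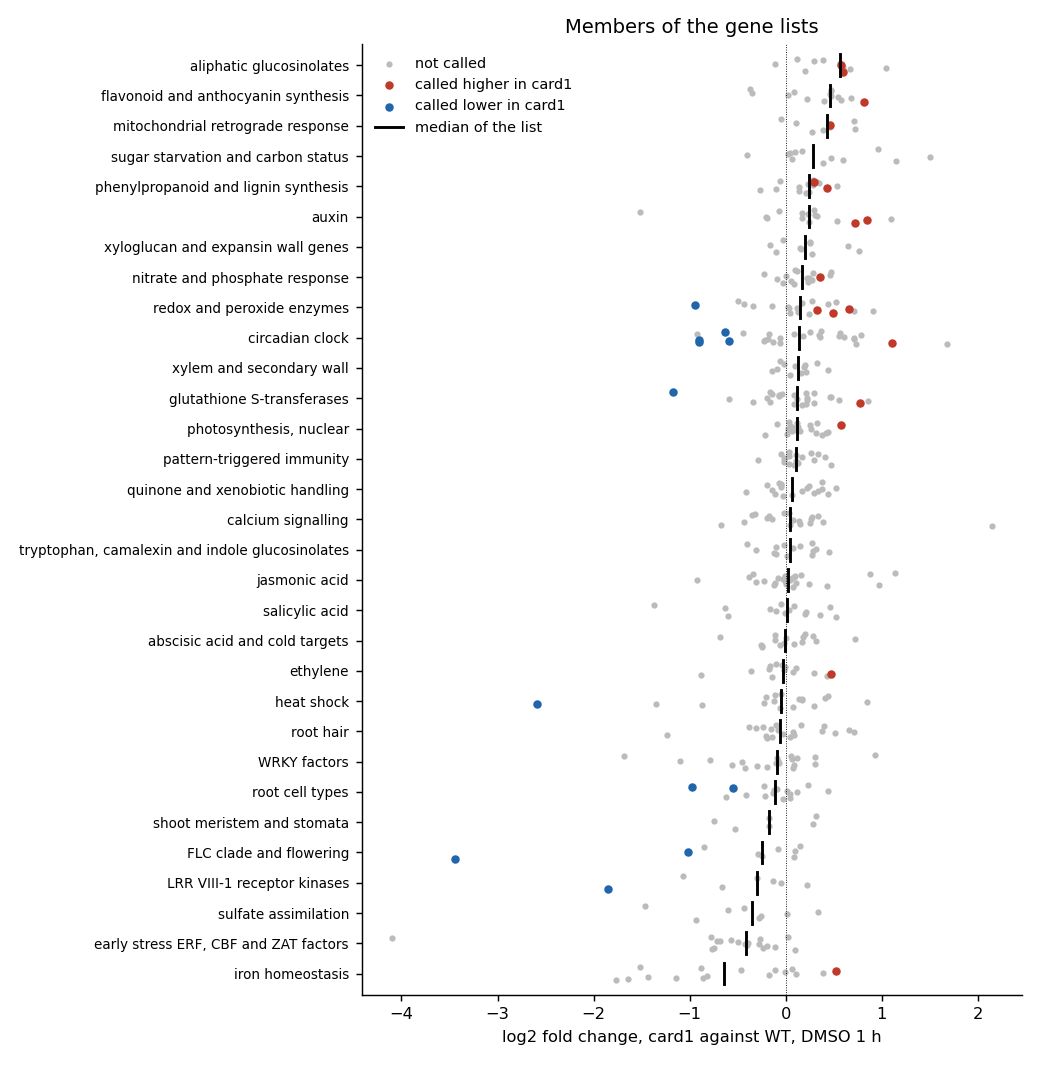
Log2 fold change of card1 against WT at 1 h in DMSO (horizontal axis) for each tested member of the 31 gene lists (1 line of points per list, ordered by median), with called genes in red (higher) or blue (lower), others in grey and a black tick at the list's median. Medians run from −0.64 for iron homeostasis to 0.57 for aliphatic glucosinolates, and the farthest point on the left is DDF1, which had no count in card1 and whose fitted value is no bound.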

How the data were processed

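The authors deposited 1 table of read counts per gene for the 48 libraries of total RNA, made with KAPA mRNA library kits per the labels' protocols. The submitters' processing notes name the aligner HISAT2 (version 2.1.0), the counter HTSeq (version 0.6.1) and the build TAIR10. Tool settings, the annotation and the strand setting were not stated. The table lists 33602 genes and 5 entries that name no gene, which were left out: in the 6 libraries, reads without a feature were 1.44 to 1.73%, ambiguous reads 0.661 to 0.705%, reads not aligned 3.68 to 5.25% and reads without a unique alignment 7.31 to 9.02%. Reads of near-identical genes are therefore uncertain. Gene names and positions came from RefSeq's TAIR10.1 annotation, which held 32835 of the identifiers (97.7%).

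Counts were tested in R 4.3.3 with edgeR 4.0.16: TMM factors, filterByExpr with a minimum count of 10 (19839 genes kept), 1 mean for each of 16 groups, a robust quasi-likelihood fit over all 48 libraries, and Benjamini-Hochberg adjustment over all genes tested with a threshold of 0.05. SE is the log2 fold change divided by the square root of F. Differences between genotype differences were contrasts of the same fit. Total counts of 6296623 to 12757673 limit the precision of low genes, and the fit was checked on simulated counts. Alternatives, summarised in the closing section, were RLE factors, DESeq2 1.42.0, other filters, fewer libraries, each library of the comparison left out, the replicate number as a block, and per-library trends on transcript length and GC content (mgcv 1.9.3). Of 544 names written in 31 gene lists, 13 whose name did not match their identifier were dropped and 48 were not tested after the filter.

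Named genes were CARD1, the 15 largest rises and 15 largest falls among called genes with an average log2 CPM of at least 0 and no overlap between groups, and from each list up to 4 called members or else up to 2 with the smallest adjusted p. Others are said to have been chosen after their values were seen. The comparison and lists were chosen with earlier results of these data known. Some items are not reported here.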

Additional observations from a re-analysis of the deposited data

How the results depend on the processing

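The CARD1 log2 fold change stayed lower and past the threshold in every alternative run, at −1.77 to −1.98 with each library left out, and no gene called in both the reported fit and an alternative changed sign. Leaving out 1 library of the comparison gave 188 to 708 called genes, 91 to 389 higher and 97 to 319 lower, of which 106 to 294 were called the same way in DMSO at 0 h, 130 to 322 at 0.5 h and 79 to 166 at 6 h, and 155 to 403 at 1 h of DMBQ. Of 55 named called genes, 20 kept the call in all 6 such fits and 35 lost it in at least 1, most often without WT replicate 3 (30) or WT replicate 2 (29). The cause was not tested. Fitting only the 24 DMSO libraries gave 342 calls, 171 higher and 171 lower, with 152, 160 and 72 called the same way at 0, 0.5 and 6 h. Fitting only the compared libraries gave 649 calls, 455 of them shared, with 11 the same way at 0 h and 186 at 0.5 h. Without card1 replicates 1 and 2 at 0 h, an alternative chosen after seeing the data, 989 genes were called, and 56 were called the same way at 0 h. RLE factors gave 738 calls, DESeq2 815, no filter 580, a minimum count of 30 gave 754 and the length and GC trends 947. DESeq2 called 1 gene in each test of a difference between genotype differences.

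Genotypes shared replicate numbers, and deviations of same-numbered libraries correlated at 0.191, 0.0332 and 0.178. Those of libraries with other numbers correlated at −0.247 to 0.0936. WT replicates 1 and 3 each correlated best with the card1 library of the same number, and WT replicate 2 with card1 replicate 1 (0.0437). Whether the numbers pair the samples was not settled, and the reported fit did not pair them. With the replicate number as a block, 1089 genes were called, 631 of them higher, with 471, 513 and 297 the same way in DMSO at 0, 0.5 and 6 h and 667 at 1 h of DMBQ. With the block and the length and GC trends together, 1359 were called, 859 of them higher, with 498, 595, 374 and 858 the same way. The shallower card1 libraries limit what can be seen of low genes.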

Other observations

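Other gene families, grouped by RefSeq product names after their values were seen, were examined at 1 h in DMSO. Enzymes named for glycolytic steps had the highest share of calls of the 6 groups examined. The group took in phosphoglucomutases and plastid forms, so it is wider than glycolysis. Of 75 tested, 12 were higher and 1 was lower (17.3%, against 3.66% of all genes tested), with a median log2 fold change of 0.08. The cytosolic glyceraldehyde-3-phosphate dehydrogenase GAPC2 was higher by 0.51 ± 0.08 (SE, adjusted p 4.02e-05, edgeR), the phosphoglucomutase PGM3 by 0.40 ± 0.07, the phosphoglycerate mutase iPGAM2 by 0.43 ± 0.07 and the plastid aldolase FBA1 by 0.57 ± 0.13. The hexokinase HXK3 was the 1 lower member (log2 −0.59 ± 0.10). With 1 library left out, 4 to 8 of the 12 higher genes stayed called. Of 126 genes with elongation or initiation factor in the product name, 11 were higher and 1 was lower (9.52%), with a median of 0.07. The search did not ask for translation, so transcription factors with such names can be among the 126. With 1 library left out, 2 to 6 of the 11 higher genes stayed called. Among them were the near-identical elongation factor genes AT1G07920, AT1G07930 and AT1G07940, whose reads the counting can split. Of 312 ribosomal proteins 6 were higher and 0 lower, a share of calls (1.92%) below that of all genes tested. Their median was 0.10, 243 had a positive log2 fold change, and 0 to 3 of the 6 stayed called with 1 library left out.

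Of 53 genes with peroxidase superfamily in the product name, 0 were called higher and 4 lower (7.55%). The median was −0.21, and 18 of the 53 had a positive log2 fold change. AT3G01190 had 56.4 ± 5.14 CPM in WT against 23.65 ± 3.54 CPM in card1 (SD, n = 3 each), a log2 fold change of −1.26 ± 0.15 (SE, adjusted p 1.26e-06, edgeR), and kept its call without each of the 6 libraries. AT2G18980 kept it as well (log2 −0.64 ± 0.13), while AT3G32980 and AT3G03670 lost it in all 6. Of 92 C1 domain proteins 0 were higher and 3 lower (3.26%), with a median of −0.30, and 0 to 2 of the 3 stayed called with 1 library left out. Of 249 genes with the bare product name of protein kinase superfamily protein, 0 were higher and 6 lower (2.41%). Their median was −0.02, and 1 to 5 of the 6 stayed called. Both shares were below the 3.66% of all genes tested. Kinases under other product names, CARD1 among them, were not counted in the 249.

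Called genes were spread over the nuclear chromosomes, at 3.43 to 3.89% of those tested. Of 107 organelle genes 0 were called by edgeR and 1 by DESeq2. An unadjusted p below 0.05 in edgeR was found for 7 of them, against 3666 of all 19839 genes tested. Within 500000 bp of CARD1, 6 of 168 tested genes were called, CARD1 included, beside 3.66% of all genes tested. The first 500000 bp of chromosome 3 stood out by rank: 7 of its 127 tested genes were called (5.51%), 6 of them among the 50 smallest p-values of the comparison. Of 208 windows of that length, 39 held any gene of those 50 and 4 held 2 or more. PTB1, a polypyrimidine tract-binding splicing regulator (chr3:51496-54544, plus strand), had 25.7, 27.5 and 23.8 CPM in WT against 7.59, 8.45 and 6.79 CPM in card1. Its libraries were far apart (log2 −1.76 ± 0.14 SE, adjusted p 1.24e-11, edgeR), with the smallest p after CARD1. The others of the 6 were AT3G01060 (log2 0.76 ± 0.09), the methionine branch-point enzyme MTO1 (0.55 ± 0.08), AT3G01190 (−1.26 ± 0.15), NAC044 (1.43 ± 0.23) and AT3G01690 (−0.46 ± 0.07). They moved in both directions, and each kept its call without each of the 6 libraries.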
